A study of Mus musculus with 12 samples.

Results

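The effect of doxycycline (dox) was compared between nuclear RNA and total RNA of mouse embryonic stem cells, gene by gene. The quantity described is the dox effect in nuclear RNA minus the dox effect in total RNA, on the log2 scale, called the difference here. A difference above 0 means that the dox-labelled columns stood higher over the no dox columns in nuclei than in whole cells. Genes were taken where at least 1 of the 4 group means reached 5 RPKM (reads per kilobase and M reads, a level corrected for length and depth), which gave 4896 of the 19716 genes of the table.

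All cells, with or without dox, hold a transgene for HA-Flag-AGO2 that dox switches on. AGO2 is the Argonaute protein that binds small RNAs and the mRNAs they pair with. Nuclear RNA was sequenced after 15 h in 2.5 ug/ml dox and without it, and total RNA of whole cells likewise, which makes 4 groups. All were grown on gelatin with leukemia inhibitory factor, and directional libraries were made after ribosomal RNA had been removed. The labels list 12 libraries, 3 per group, and say nothing of separate cultures or clones, so p-values measure the spread between libraries, which may be technical. The deposited table holds the authors' means of 10 of them (for nuclear RNA 3 with dox and 2 without, for total RNA 2 with dox and 3 without). Each library's own values were not analysed here, and each level below is a deposited group mean with no SD of its own.

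Ago2, the gene induced by design, was lower in the dox-labelled columns, at 2.39 RPKM in nuclear dox against 8.65 RPKM in nuclear no dox, and at 3.43 RPKM in total dox against 9.12 RPKM in total no dox. Whether this row counts reads of the transgene is not known, and every direction below rests on columns labelled dox and no dox. Depth, inferred from low RPKM values, was 10.34 to 11.79 M reads in the dox-labelled libraries and 15.29 to 18.9 M reads in the libraries without dox. The ranges searched for dox and no dox did not overlap, so the order of these depths was not tested. Pou5f1, the transcription factor that defines these cells, stood at 326 and 63.2 RPKM in nuclear dox and no dox, and at 375 and 94.1 RPKM in total dox and no dox. Nanog and Sox2 also passed 5 RPKM, while no marker on the mesoderm or the 2-cell-like list did. Of the other cell types' markers, 5 of 15 for endoderm passed (Krt8, Krt18, Krt19, Col4a1 and Lama1), as did 3 of 13 for trophectoderm (Krt8 and Krt18 again, and Tead4), 1 of 13 for fibroblast feeders (Vim) and 1 of 11 for neuroectoderm (Tubb3). The 5 endoderm markers summed to 33.9 and 21.2 RPKM in nuclear dox and no dox, and to 142 and 57.0 RPKM in total dox and no dox. The 3 trophectoderm markers summed to 25.8 and 8.54 RPKM in nuclear dox and no dox, and to 111 and 36.2 RPKM in total dox and no dox. Their part in the results was not tested. In bulk RNA, fewer cells of a type and less RNA per cell cannot be told apart.

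A mature mRNA is made in the nucleus, spliced, and exported to the cytoplasm, where most of it is found once it is stable. A nuclear preparation therefore holds a larger share of newly made, intron-bearing and retained RNA than whole cells do, and both hold the nuclear pool. Long noncoding RNAs such as Malat1 and Neat1 stay in the nucleus, transcripts with detained introns wait there for their last splicing step, and mRNAs of ribosomal proteins and of the respiratory chain are short, abundant and mostly cytoplasmic. Replication-dependent histone mRNAs have no poly(A) tail and end in a conserved stem-loop, which is bound for processing, export and translation. Having no tail, they are lost in poly(A) selection and kept where ribosomal RNA is removed instead.

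Sequences known for the leading groups are shown here, although the lists were drawn up by gene name. The conserved histone stem-loop (a stem that starts with GG and ends with CC, with CTT and AG on either side of the loop) was searched on the sense strand in the last 150 bases of a GENCODE vM21 transcript (GRCm38). It was found in 22 of 64 histone genes (34.4%) and in 5 of 4803 other genes with a transcript (0.104%). Some annotated histone transcripts are short, such as those of Hist1h2af (399 bases) and Hist2h2bb (381 bases). A transcript annotated without its end cannot show the stem-loop, so the share describes the annotation and not how many histone genes have it. The stem-loop is in capitals in 4 histone genes, all on chromosome 13, at chr13:23744973-23745602 (Hist1h3c, minus strand), chr13:23761853-23762386 (Hist1h3a, minus strand), chr13:23760692-23761230 (Hist1h4a, minus strand) and chr13:22043214-22043676 (Hist1h2bj, plus strand).
Hist1h3c: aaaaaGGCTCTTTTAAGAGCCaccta
Hist1h3a: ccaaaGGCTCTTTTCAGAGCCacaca
Hist1h4a: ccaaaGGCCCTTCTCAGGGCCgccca
Hist1h2bj: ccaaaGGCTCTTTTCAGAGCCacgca
The ferritin genes Fth1 and Ftl1, which encode the chains of the iron store, carry an iron-responsive element near the start of the transcript. It was searched as CAGTGN flanked by 5 paired bases (first 300 bases, sense strand) and was found in 18 of 4867 genes with a transcript (0.370%). The loop is in capitals for Fth1 (chr19:9980598-9985098, plus strand) and for Ftl1 (chr7:45457944-45459884, minus strand).
Fth1: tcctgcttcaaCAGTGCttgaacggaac
Ftl1: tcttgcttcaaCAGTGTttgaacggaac
The difference was 0.91 ± 0.14 for Fth1 and 1.03 ± 0.20 for Ftl1 (log2 ± SE). A match is a description of the letters and not a tested site.

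Most of the 4896 genes differed between the dox and no dox columns in both fractions. In limma with Benjamini-Hochberg adjustment over 10197 tested genes, the nuclear effect was called higher for 3157 (64.5%) and lower for 891 (18.2%) at an adjusted p below 0.05. In total RNA 3057 (62.4%) were called higher and 858 (17.5%) lower. Over all tested genes the shares were 43.1% and 26.3% in nuclear RNA, and 41.5% and 22.8% in total RNA. Of 2874 genes called higher in both fractions, 1980 (68.9%) had a difference above 0, with a median dox effect of 1.33 in nuclear and 1.17 in total RNA. Of 748 called lower in both, 522 had a difference below 0, with medians of -1.13 in nuclear and -0.99 in total RNA. Over all 4896 genes, 59.0% had a difference above 0 and 41.0% below 0. Both kinds of gene thus had on the median the larger effect in nuclei.

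The difference itself was small beside its error for most genes. Its median over the 4896 genes was 0.08, with a median SE of 0.21, and 0.00 over all tested genes. In limma with Benjamini-Hochberg adjustment, 0 of 10197 genes (0%) passed for the difference, the smallest adjusted p being 0.0557. At an unadjusted p below 0.05, 704 of the 4896 genes (14.4%) had a larger dox effect in nuclei and 199 (4.06%) a smaller one, against 8.94% and 4.18% of all tested genes. Here and below, larger and smaller go by sign: larger means a difference above 0 and smaller a difference below 0. For genes that fall with dox in both fractions, smaller thus means a deeper fall in nuclei. The sign alone split the 4896 genes into 2887 above 0 (59.0%) and 2009 below 0 (41.0%), against 50.1% and 49.9% of all tested genes. Without moderation of the variances 2 genes passed with a larger and 1 with a smaller effect. Fitted and adjusted over the genes at 5 RPKM alone, 109 passed with a larger and 12 with a smaller effect. Because no gene passes the adjusted test of this fit, the family counts below use the unadjusted threshold and are read against these shares. A difference of at least 1.5-fold was held by 438 genes in the direction of nuclei (8.95%) and by 95 in the other (1.94%), against 8.50% and 6.52% of all tested genes. Sizes on both sides of 0 hang on the scaling. For 151 genes above 0, the difference was followed singly under the alternatives. After quantile normalization of the 4 columns, it was over 1.5 times smaller, or below 0, for 82 of them. Of the genes below 0 followed likewise, 8 moved as far toward or past 0. Genes that moved farther from 0 were not counted. Family medians below 0 mostly moved farther from 0. The median went from -0.28 to -0.45 for detained-intron genes and from -0.19 to -0.47 for hosts of small nucleolar RNAs. It went from -0.44 to -0.79 for ERK feedback genes, and stayed at -0.02 for cyclins and CDKs.

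The 5 RPKM rule bears on the sign of a difference. Genes that reached 5 RPKM in nuclear dox alone (98) had a median of 0.27, and those that did so in nuclear no dox alone (43) a median of -0.38. The median was -0.11 for those in total dox alone (387) and -0.05 for those in total no dox alone (262). The 2213 genes at 5 RPKM in all 4 columns had a median of 0.11, and 62.4% of them were above 0. Just inside the rule, Mrps17 and Ctr9 had differences of 0.20 and -0.13, and just outside it D10Jhu81e and Bcl2l13 had -0.09 and 0.08.

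**Figure D1:**
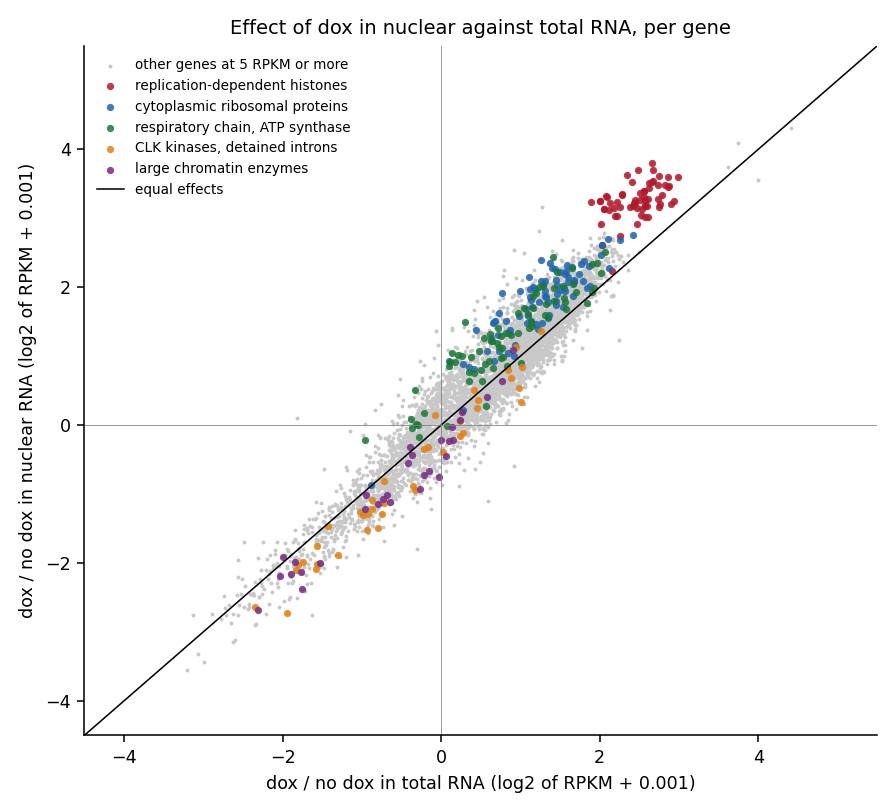
Each point is a gene at 5 RPKM or more, with its dox effect in total RNA on the horizontal and in nuclear RNA on the vertical axis (log2 of dox over no dox, from deposited means of log2(RPKM + 0.001)). The line marks equal effects; the 8 genes whose difference exceeds 2 in size are left out. Histones, ribosomal protein and respiratory chain genes lie mostly above the line, and detained-intron genes and large chromatin enzymes mostly below it.

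Replication-dependent histone genes, which encode the proteins that package newly copied DNA, stood farthest from equality. Of 69 such genes, 64 passed 5 RPKM, 63 of these had a difference above 0, and the median was 0.78. A larger nuclear effect at an unadjusted p below 0.05 was seen for 53 and a smaller one for 0, and 49 differed by at least 1.5-fold. Histone genes rose in both fractions: 63 of 64 were called higher in nuclei and 64 of 64 in total RNA, with median effects of 3.24 and 2.51. The median nuclear over total level of these genes was 0.59 with dox and -0.16 without it, on the log2 scale. Over all 4896 genes it was -0.28 with dox and -0.37 without it. RPKM is scaled within each library, so 0 on this scale means equal RPKM and not equal amounts of RNA. Summed over the 64 histone genes, the level was 28731 RPKM in nuclear dox and 2983 RPKM in nuclear no dox, and 19703 RPKM in total dox and 3222 RPKM in total no dox. So with dox the sum of RPKM was higher in the nuclear than in the total column, and without dox it was a little lower.

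Every histone class had a median above 0. The median difference was 0.96 for 17 H2B genes, 0.76 for 17 H2A genes, 0.75 for 12 H4 genes and 0.64 for 12 H3 genes, and it was 0.49 for 6 linker H1 genes. Hist1h3c, an H3 gene, had 595 RPKM in nuclear dox against 51.6 RPKM in nuclear no dox, and 471 RPKM in total dox against 88.6 RPKM in total no dox. Its dox effect was thus 3.53 in nuclei and 2.41 in total RNA, a difference of 1.12 ± 0.18 (limma, adjusted p = 0.0557). Hist1h2af, an H2A gene, had 227 RPKM in nuclear dox against 25.4 RPKM in nuclear no dox, and 151 RPKM in total dox against 31.6 RPKM in total no dox, a difference of 0.90 ± 0.14. Hist2h2bb and Hist1h3a had differences of 0.87 ± 0.16 and 0.81 ± 0.16. Hist1h4d, an H4 gene, was more abundant, at 1649 RPKM in nuclear dox against 169.6 RPKM in nuclear no dox, and 1053 RPKM in total dox against 173 RPKM in total no dox. Its difference was 0.68 ± 0.13, and -0.05 after quantile normalization. The testis H1 gene Hist1h1t was the 1 histone below 0 (-2.86 ± 2.34). It passed in nuclear dox alone and was near 0 in total RNA (0.379 RPKM in total dox and 0.00464 RPKM in total no dox), so its fold is set by the small pseudocount. Histone genes are near-identical copies, and how the authors' counting shared reads between them is not stated, so single members are uncertain.

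The histone list kept its sign under each scaling but not its size. Its median difference was 0.21 after quantile normalization of the 4 columns, 0.41 with the trend on exon length removed and 0.39 with length and GC trends removed. Histone promoters were rich in the 2 elements named for them. CCAAT was found on either strand within the 250 bases before the start in 48 of 58 histone genes matched in RefSeq (82.8%), against 33.8% of 32851 promoters, and TATAA in 37 (63.8%), against 22.8%. Variant histones, which are made outside S phase as well, showed the same sign in a smaller size. The 12 genes of this list had a median of 0.49, with 6 larger at an unadjusted p below 0.05 and 0 smaller. It shares Hist3h2a and Hist3h2ba with the list above, and Hist3h2ba had its highest difference (0.91). The median of the 12 genes was 0.01 after quantile normalization. H2afx, the variant marked at DNA breaks, had 224 RPKM in nuclear dox against 36.9 RPKM in nuclear no dox and 197 RPKM in total dox against 45.5 RPKM in total no dox (difference 0.49 ± 0.14, and -0.14 after quantile normalization). H1f0, a linker histone of resting cells, was the 1 member below 0, at -0.01 ± 0.26.

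Cytoplasmic ribosomal protein mRNAs followed. Of 89 such genes, 85 passed 5 RPKM, 84 had a difference above 0, the median was 0.55, and 66 had a larger nuclear effect at an unadjusted p below 0.05 against 0 with a smaller one. They rose with dox in both fractions, with 83 called higher in nuclei and 81 in total RNA, and the median effect was 1.87 in nuclei and 1.29 in total RNA. Without dox their median nuclear over total level was -0.64, below the -0.37 of all 4896 genes. With dox it was -0.08, above the -0.28 of all 4896 genes. The median was 0.57 for 34 proteins of the small subunit and 0.48 for 51 of the large subunit. Rps15, at the head of the small subunit, had 265 RPKM in nuclear dox against 59.5 RPKM in nuclear no dox, and 258 RPKM in total dox against 119.6 RPKM in total no dox, a difference of 1.05 ± 0.22. Rps26, near the exit of the mRNA channel, had a difference of 0.84 ± 0.17, and Rpl18 of the large subunit had 0.72 ± 0.15 (0.33 and 0.09 after quantile normalization). Rpl31 was the 1 member below 0, at -0.07 ± 0.27, with 12.7 RPKM in nuclear dox against 10.9 RPKM in nuclear no dox, and 14.1 RPKM in total dox against 11.6 RPKM in total no dox. After quantile normalization the median of the list was 0.04, and with the trend on exon length removed 0.29.

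The rest of the translation apparatus leaned less, or not at all. Subunits of eIF3, which holds the small subunit ready for an mRNA, had a median of 0.35 (12 genes, 4 larger and 0 smaller at an unadjusted p below 0.05), and 0.08 after quantile normalization. It was led by Eif3i at 0.72 ± 0.20, Eif3f at 0.64 ± 0.15 and Eif3k at 0.60 ± 0.17, while the long scaffold subunit Eif3a had -0.19 ± 0.17. Eif3a fell with dox in both fractions, to 16.5 RPKM in nuclear dox against 30.0 RPKM in nuclear no dox, and to 17.5 RPKM in total dox against 27.8 RPKM in total no dox. Other initiation and elongation factors had a median of 0.22, and 0.05 after quantile normalization (35 genes, 10 larger and 1 smaller), led by Eef1g at 0.56 ± 0.14 and Eef1b2 at 0.55 ± 0.15, parts of the factor that reloads eEF1A. Their differences were 0.03 and 0.12 after quantile normalization. Aminoacyl-tRNA synthetases had a median of 0.10 (30 genes, 2 larger and 1 smaller), and -0.14 after quantile normalization. Ribosome biogenesis factors, which assemble subunits in the nucleolus, had -0.08 (65 genes, 4 larger and 2 smaller), although 56 of them rose in nuclei and 56 in total RNA. Tsr1, a late assembly factor of the small subunit, rose in total RNA alone by the adjusted test (0.53 in total, -0.04 in nuclei), a difference of -0.56 ± 0.16.

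Nuclear-encoded genes of the respiratory chain and ATP synthase, the enzymes of oxidative phosphorylation, formed the third large group. Of 75 that passed, 71 had a difference above 0, the median was 0.42, and 32 were larger in nuclei at an unadjusted p below 0.05 against 0 smaller. The median dox effect was 1.30 in nuclei and 0.79 in total RNA, and the median nuclear over total level was -0.11 with dox against -0.55 without it. The median was above 0 in each complex: complex I had a median of 0.50 (36 genes), complex III with cytochrome c 0.42 (9), complex IV 0.42 (11), ATP synthase 0.38 (15) and complex II 0.30 (4). Atp5d, a subunit of the ATP synthase rotor, had 73.4 RPKM in nuclear dox against 13.5 RPKM in nuclear no dox, and 72.9 RPKM in total dox against 27.5 RPKM in total no dox (difference 1.03 ± 0.20). Cox17, the copper chaperone of complex IV, rose in nuclei to 37.0 RPKM with dox against 17.0 RPKM without (limma, adjusted p = 3.91e-06), and stood at 23.7 RPKM in total dox and 20.6 RPKM in total no dox (adjusted p = 0.173). Cox8a had the same form, with effects of 1.01 in nuclei and 0.22 in total RNA. Ndufs1, a large iron-sulfur subunit of complex I, had -0.29 ± 0.17. With the trend on exon length removed, the median of the list was 0.19, and after quantile normalization 0.23.

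Other mitochondrial lists were smaller in the same direction. Mitochondrial ribosomal proteins had a median of 0.24 (62 genes, 54 above 0, 12 larger and 0 smaller at an unadjusted p below 0.05), with 0.25 in the small and 0.23 in the large subunit, and 0.09 for the list after quantile normalization. Import and chaperone genes had 0.26, and 0.06 after quantile normalization (31 genes, 9 larger and 0 smaller), led by Tomm5 of the outer membrane pore at 0.86 ± 0.22. Enzymes of the TCA cycle, in the same organelle, had 0.06 (16 genes, 1 larger and 0 smaller), with dox effects of 1.45 in nuclei and 1.43 in total RNA, and a median of -0.06 after quantile normalization. Glycolysis enzymes had 0.33 (18 genes, 8 larger and 0 smaller), and -0.04 after quantile normalization, so their direction hangs on the scaling. Aldoa (0.50 ± 0.15) and Ldhb (0.49 ± 0.15) were reversed by it, to -0.25 and -0.08, and Tpi1 (0.52 ± 0.15) was not. Serine and one-carbon enzymes had 0.02 (12 genes), with Mat2a, which makes S-adenosylmethionine and is known for a detained intron, at -0.60 ± 0.16.

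**Figure D2:**
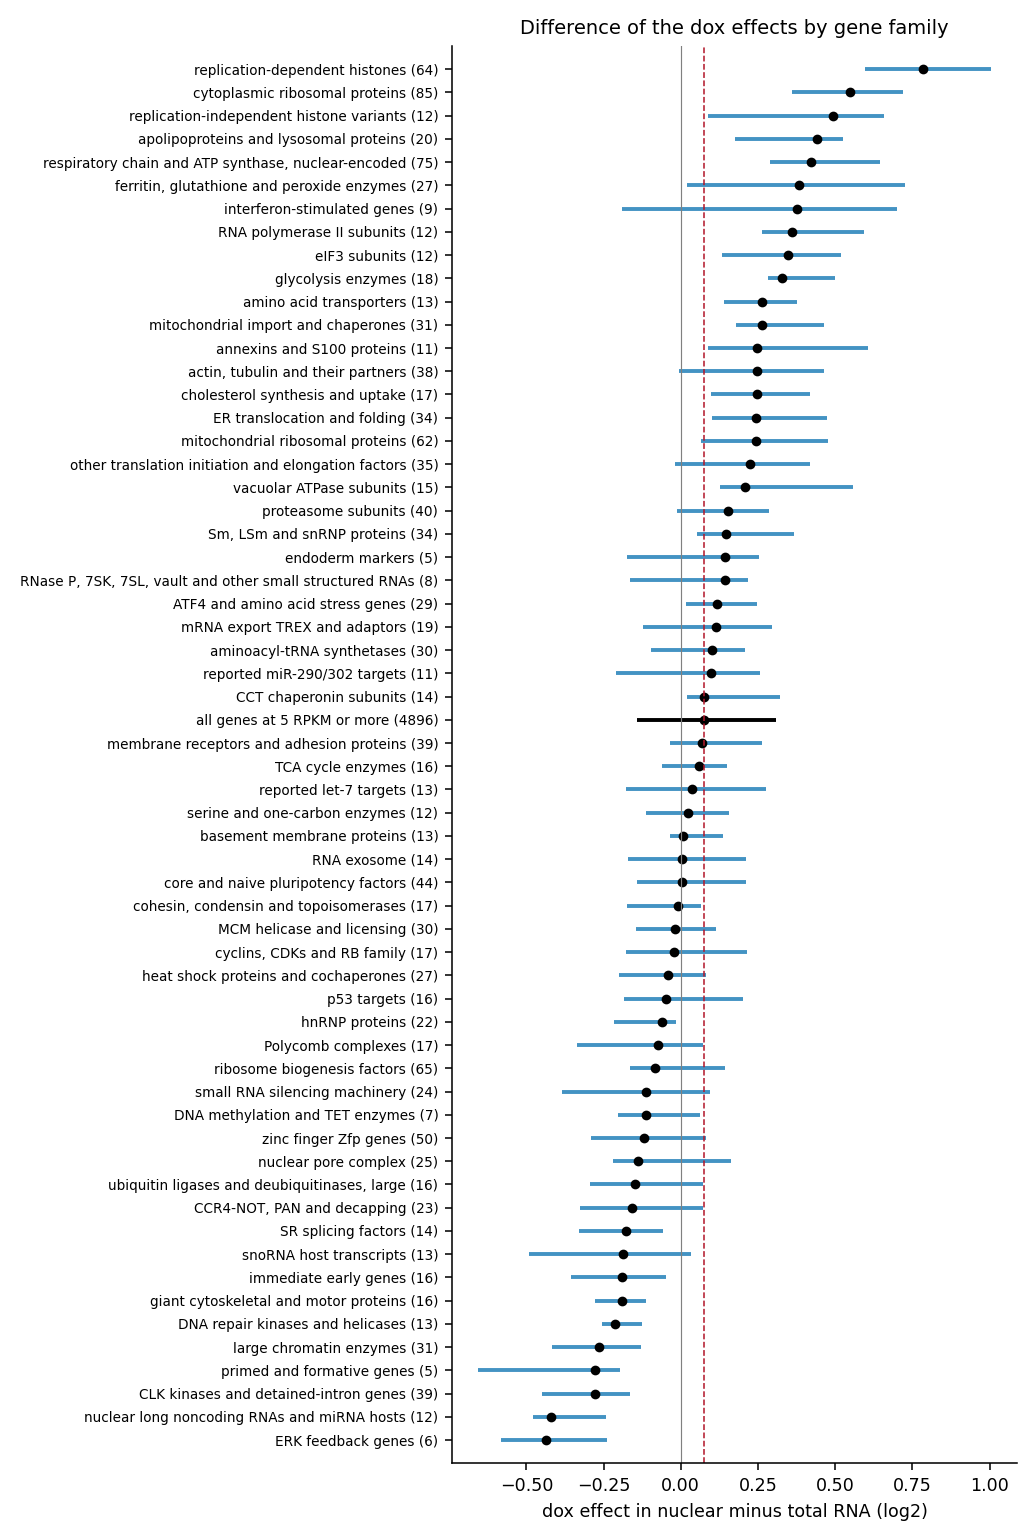
Gene families are ordered by their median difference of the dox effects (nuclear minus total, log2; points), with the interquartile range as bars and the number of genes at 5 RPKM or more in brackets. The black bar and the dashed line mark all 4896 genes (median 0.08). Histones (0.78) and ribosomal proteins (0.55) are at the top, and nuclear long noncoding RNAs (-0.42) and ERK feedback genes (-0.44) at the bottom.

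Genes of iron storage and of defence against peroxides were among the single genes with the largest t values. Fth1, the ferritin heavy chain, had 89.7 RPKM in nuclear dox against 21.4 RPKM in nuclear no dox, and 75.6 RPKM in total dox against 33.9 RPKM in total no dox. Its difference had the largest t of the 4896 genes (limma, adjusted p = 0.0557). Ftl1, the light chain, had 599 RPKM in nuclear dox against 107 RPKM in nuclear no dox, and 557 RPKM in total dox against 204 RPKM in total no dox. Gstp1, a glutathione transferase, had 107 RPKM in nuclear dox against 14.4 RPKM in nuclear no dox and 117 RPKM in total dox against 29.5 RPKM in total no dox (difference 0.90 ± 0.17). A list of ferritin, glutathione and peroxide enzymes, drawn up after these values were seen, had a median of 0.38, and 0.19 after quantile normalization (27 genes, 13 larger and 0 smaller at an unadjusted p below 0.05), and Nqo1, a quinone reductase, had -0.42 ± 0.33. Metallothioneins, which bind zinc and copper, had 0.73 ± 0.20 for Mt1, 0.59 ± 0.21 for Mt2 and -0.11 ± 0.68 for Mt3.

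Single genes with no shared family completed the leading 15. Polr2j, a small subunit of RNA polymerase II, rose in nuclei, to 6.25 RPKM with dox against 2.41 RPKM without (limma, adjusted p = 1.19e-05), and was at 4.49 RPKM in total dox and 4.69 RPKM in total no dox (adjusted p = 0.768). Its difference of 1.43 ± 0.25 was among the largest with a small error. Polr2j passed 5 RPKM in nuclear dox alone, where a high value raises the difference. Krtcap2, a subunit of the oligosaccharyltransferase, had 8.74 RPKM in nuclear dox against 4.60 RPKM in nuclear no dox, and 7.10 RPKM in total dox against 8.51 RPKM in total no dox (difference 1.18 ± 0.22). Grhpr, a glyoxylate reductase, had dox effects of 2.69 in nuclei and 1.52 in total RNA, Siva1, which promotes apoptosis, 1.82 and 0.73, and Yif1b, a membrane protein of the ER-Golgi route, 1.65 and 0.65. Gm6654, annotated as a pseudogene, had 0.93 ± 0.15. The 37 processed pseudogenes at 5 RPKM had a median of 0.41 as a class, and their reads may belong to the parent genes. The 12 RNA polymerase II subunits had a median of 0.36 (3 larger and 0 smaller), with the small Polr2f at 0.58 ± 0.18 and Polr2e at 0.63 ± 0.21, and the large catalytic subunit Polr2a at -0.40 ± 0.19. The median of these subunits was 0.17 after quantile normalization and 0.14 with the trend on exon length removed.

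**Figure D3:**
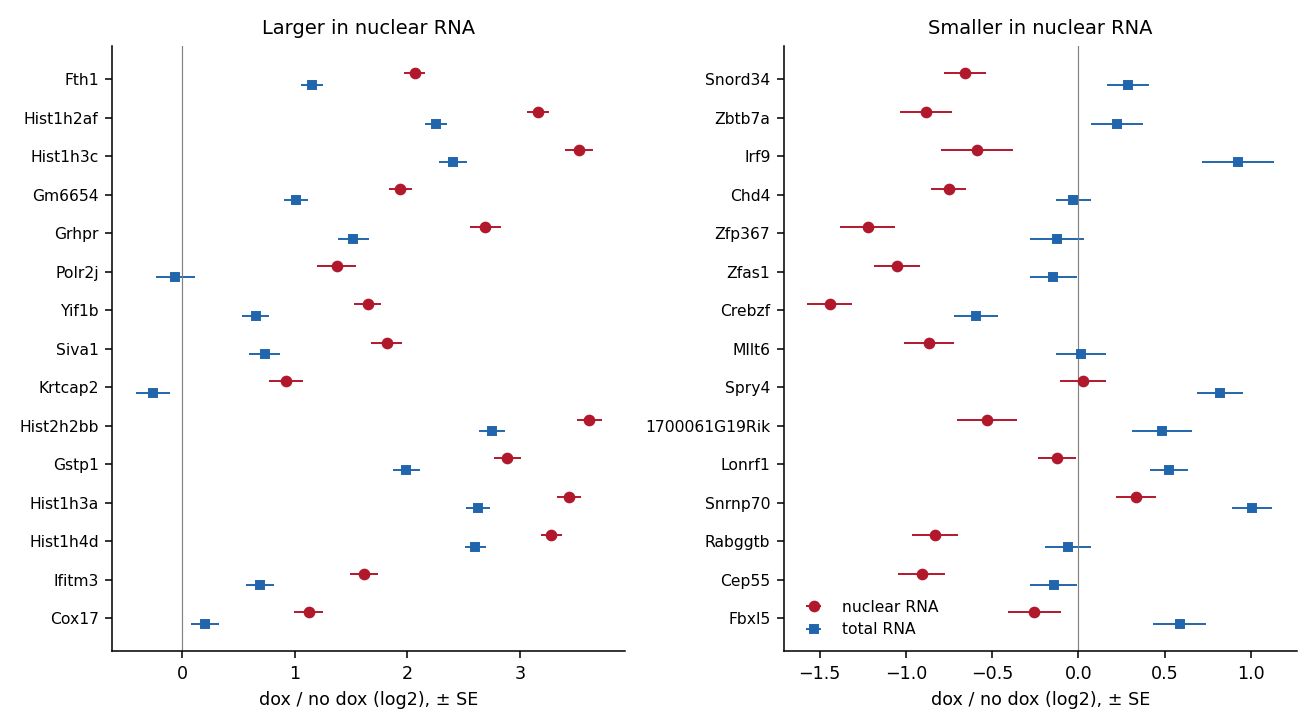
Dox effects in nuclear RNA (circles) and in total RNA (squares), as log2 of dox over no dox with bars of 1 SE, for the 15 genes with the largest t of the difference in each direction. On the left, Fth1 (2.07 in nuclei, 1.16 in total RNA) and the histones rise in both fractions and farther in nuclei; on the right, genes such as Chd4 (-0.75 in nuclei, -0.03 in total RNA) are lower with dox in nuclei and near 0 in total RNA.

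Genes for translocation and folding of proteins at the endoplasmic reticulum had a median of 0.24, and 0.15 after quantile normalization (34 genes, 10 larger and 0 smaller at an unadjusted p below 0.05). Of these genes 13 were called higher and 12 lower in nuclei, and 4 higher and 14 lower in total RNA. Subunits of the oligosaccharyltransferase, which attaches glycans, had a median of 0.49 (8 genes, 5 larger), and the translocon-associated Ssr proteins also 0.49 (4 genes, 2 larger). Ssr2 had 70.1 RPKM in nuclear dox against 45.9 RPKM in nuclear no dox, and 76.6 RPKM in total dox against 79.5 RPKM in total no dox. Ostc had effects of 0.28 in nuclei and -0.50 in total RNA, and fell by the adjusted test in total RNA. The chaperone Hspa5 fell in both fractions, with effects of -0.71 in nuclei and -0.57 in total RNA (difference -0.14 ± 0.15).

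Lysosomal proteins and apolipoproteins had a median of 0.44 (20 genes, 10 larger and 0 smaller). Among them 7 were called higher and 4 lower in nuclei, and 1 higher and 7 lower in total RNA. Apoe, the lipid carrier, rose in nuclei to 188 RPKM with dox against 111 RPKM without (limma, adjusted p = 1.46e-05), and had 182 RPKM in total dox and 169.8 RPKM in total no dox (adjusted p = 0.381). The protease Ctsd had effects of 0.46 in nuclei and -0.05 in total RNA, and Hexa, a hexosaminidase, 0.37 and -0.48. Subunits of the vacuolar ATPase, which acidifies these compartments, had a median of 0.21 (15 genes; a list drawn up after the values were seen). The 6 subunits of its membrane sector had 0.62, led by Atp6v0e at 1.13 ± 0.26 and Atp6v0c at 0.72 ± 0.16, and the 8 of its catalytic sector 0.17. Cholesterol synthesis genes had 0.25 (17 genes, 4 larger and 0 smaller), with Ebp at 0.78 ± 0.21 and Pmvk at 0.77 ± 0.22. Amino acid transporters had 0.26, and 0.14 after quantile normalization (13 genes, 3 larger and 0 smaller), with Slc7a5, the carrier of large neutral amino acids, called higher in nuclei (0.48) and at -0.01 in total RNA.

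Membrane receptors and adhesion proteins (39 genes, median 0.07) and basement membrane proteins (13 genes, median 0.01) were mostly lower with dox in both fractions. Of the 39 receptors 26 were called lower in nuclei and 32 in total RNA, and of the 13 matrix genes 11 and 12. Nectin2 (0.64 ± 0.18) and Itga5 (0.47 ± 0.18), both adhesion proteins, were among the 4 receptors larger at an unadjusted p below 0.05. The interferon-stimulated list was small and spread wide, from -1.51 to 1.24 over 9 genes, and its median of 0.38 was 0.16 with the trend on exon length removed. Ifitm3 and Ifitm1, membrane proteins expressed in these cells without interferon, had 0.92 ± 0.18 and 0.62 ± 0.19, and B2m, the light chain of class I antigens, 1.24 ± 0.32. Actin, tubulin and their partners had 0.25 (38 genes, 9 larger and 0 smaller, and 0.02 after quantile normalization), with Tubb6 at 0.88 ± 0.21 and Tuba1a at 0.52 ± 0.13. Simple epithelial keratins (3 genes) had 0.25, and -0.08 with a pseudocount of 1 RPKM.

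In the other direction stood the long noncoding RNAs of the nucleus. All 12 that passed 5 RPKM had a difference below 0 (median -0.42, 0 larger and 3 smaller at an unadjusted p below 0.05). They fell with dox in both fractions, 12 of 12 by the adjusted test in nuclei and 11 of 12 in total RNA, with median effects of -2.45 and -2.16. Malat1, which sits in nuclear speckles, had 77.3 RPKM in nuclear dox against 467 RPKM in nuclear no dox, and 140.3 RPKM in total dox against 633 RPKM in total no dox (difference -0.42 ± 0.18). Neat1, the scaffold of paraspeckles, had 1.71 RPKM in nuclear dox against 10.004 RPKM in nuclear no dox, and 2.78 RPKM in total dox against 11.01 RPKM in total no dox (difference -0.56 ± 0.19). Malat1 and Neat1 were thus lower in the nuclear than in the total columns, both with and without dox. How far the nuclear fraction was enriched for nuclear RNA was not tested. Meg3, an imprinted transcript, had -0.53 ± 0.24. The list's median nuclear over total level was -0.11 with dox against 0.22 without it, and that of all 4896 genes -0.28 against -0.37.

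Transcripts known for detained introns, with the CLK kinases that phosphorylate splicing factors, had a median of -0.28, and -0.45 after quantile normalization. Of 39 such genes 35 were below 0, 12 had a smaller nuclear value at an unadjusted p below 0.05 and 0 a larger one. In nuclei 24 were called lower and 9 higher, and in total RNA 22 and 10. Clk1 fell to 1.33 RPKM in nuclear dox against 8.80 RPKM in nuclear no dox, and to 2.03 RPKM in total dox against 7.80 RPKM in total no dox (difference -0.79 ± 0.22). Son, a speckle protein, had dox effects of -0.94 in nuclei and -0.33 in total RNA. Snrnp70, of the U1 particle, rose in both fractions but less in nuclei, to 29.4 RPKM in nuclear dox against 23.3 RPKM in nuclear no dox, and to 34.7 RPKM in total dox against 17.3 RPKM in total no dox (difference -0.67 ± 0.17). RPKM per gene does not separate spliced from intron-bearing reads, so the detained introns themselves were not measured.

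Proteins that choose splice sites leaned the same way, and the small core proteins of the spliceosome did not. SR splicing factors had a median of -0.18, and -0.41 after quantile normalization (14 genes, 0 larger and 4 smaller), with Srrm2 at -0.70 ± 0.21, Srrm1 at -0.48 ± 0.19 and Srsf5 at -0.37 ± 0.16. Proteins of the hnRNP class had -0.06, and -0.30 after quantile normalization (22 genes, 0 larger and 2 smaller), with Hnrnpdl at -0.53 ± 0.21. Sm, LSm and snRNP proteins had 0.15 (34 genes, 7 larger and 2 smaller, and -0.01 after quantile normalization), and the 8 Sm proteins 0.33. Snrpd2 of the Sm ring had 0.67 ± 0.16 and Snrpg 0.60 ± 0.15. Export factors of the TREX complex (19 genes, 0.12, and -0.13 after quantile normalization), the nuclear pore (25 genes, -0.14) and the exosome (14 genes, 0.01) had few genes past the unadjusted threshold: 2 larger and 1 smaller, 0 and 1, and 0 and 3.

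Hosts of small nucleolar RNAs, whose spliced RNA is mostly a by-product, had a median of -0.19, and -0.47 after quantile normalization (13 genes, 0 larger and 4 smaller). Zfas1 had 12.3 RPKM in nuclear dox against 25.5 RPKM in nuclear no dox, and 19.3 RPKM in total dox against 21.3 RPKM in total no dox (difference -0.90 ± 0.19). Snhg1 had -0.96 ± 0.28 and Snhg5 -0.74 ± 0.27, and Rabggtb, a protein-coding host on no list, -0.77 ± 0.19. The small RNAs released from introns went no single way: 55 snoRNA and scaRNA genes had a median of 0.14, with 5 larger and 4 smaller. Their median turned to -0.22 after quantile normalization and to -0.32 with the trend on exon length removed. Snord34, a box C/D RNA inside Rpl13a (chr7:45126601-45126670, minus strand, within the gene on the same strand), had the most negative t of the 4896 genes. It had 56.4 RPKM in nuclear dox against 88.9 RPKM in nuclear no dox, and 54.6 RPKM in total dox against 44.8 RPKM in total no dox (difference -0.94 ± 0.17). Its host Rpl13a, chosen for comparison after its value was seen, had 423 RPKM in nuclear dox against 76.7 RPKM in nuclear no dox, and 463 RPKM in total dox against 114 RPKM in total no dox (difference 0.45 ± 0.18, and -0.16 after quantile normalization). The pair overlaps on 1 strand, so its reads cannot be fully told apart.

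Large chromatin enzymes had a median of -0.27, with 28 of 31 genes below 0, and 0 larger and 7 smaller at an unadjusted p below 0.05. In nuclei 21 were called lower and 3 higher with dox, and in total RNA 17 and 3, with median effects of -0.75 in nuclei and -0.40 in total RNA. Chd4, the motor of the NuRD complex, fell in nuclei to 33.6 RPKM with dox against 56.6 RPKM without (limma, adjusted p = 2.26e-05), and had 48.9 RPKM in total dox and 49.9 RPKM in total no dox (adjusted p = 0.808). Its difference was -0.72 ± 0.14. Chd8 and Kmt2d, a remodeller and an H3K4 methyltransferase, had -0.67 ± 0.18 and -0.51 ± 0.19, and Smarca4, the motor of the BAF complex, rose in both fractions with 0.18 ± 0.20. With the trend on exon length removed the median of the list was -0.08. Polycomb genes had -0.08 (17 genes, 0 larger and 2 smaller), with Jarid2 at -0.58 ± 0.15 and Cbx6 at -0.62 ± 0.18. Zinc finger Zfp genes had -0.12 (50 genes, 1 larger and 4 smaller), and Zfp367 fell in nuclei alone by the adjusted test, to 1.39 RPKM with dox against 3.25 RPKM without. Other lists of long genes had medians below 0 as well: giant cytoskeletal and motor proteins -0.19 (16 genes, all below 0, 0 larger and 1 smaller), DNA repair kinases and helicases -0.21 (13 genes, 0 and 0), and large ubiquitin ligases and deubiquitinases -0.15 (16 genes, 0 larger and 1 smaller). With the trend on exon length removed these were -0.01, -0.17 and 0.02, so the sign of the ligases turned. Mllt6 (-0.88 ± 0.20), Zbtb7a (-1.11 ± 0.21) and Crebzf (-0.85 ± 0.18), further regulators of transcription, were among the 15 most negative. Zbtb7a passed 5 RPKM in total dox alone, where a high value lowers the difference.

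Genes that feed back on ERK signalling, listed after their values were seen, were all below 0 (6 genes, median -0.44, and -0.79 after quantile normalization). Spry4, an inhibitor of the pathway, had 7.94 RPKM in nuclear dox against 7.79 RPKM in nuclear no dox, and 6.55 RPKM in total dox against 3.71 RPKM in total no dox, so it rose in total RNA and not detectably in nuclei (difference -0.79 ± 0.19). Spry2 had the same form, with effects of 0.10 in nuclei and 0.60 in total RNA, and Spred1 fell in both, with -1.47 and -0.86. Immediate early genes had a median of -0.19 (16 genes, 0 larger and 2 smaller); 10 were called higher in nuclei and 14 in total RNA. Junb, an AP-1 factor, had effects of 0.47 and 0.91, and Jund, a related factor, had a difference of 0.30 ± 0.14. Lonrf1 and Fbxl5, an iron-sensing ubiquitin ligase adaptor, were called higher in total RNA alone, with differences of -0.65 ± 0.16 and -0.84 ± 0.21. Fbxl5 passed 5 RPKM in total dox alone, where a high value lowers the difference.

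By the adjusted test, 4 of the 4896 genes were called in opposite directions in the 2 fractions. The same count over all tested genes was not made. Irf9, the DNA-binding part of the interferon-activated factor, was lower with dox in nuclei (1.65 RPKM in nuclear dox and 2.48 RPKM in nuclear no dox) and higher in total RNA (6.11 RPKM in total dox and 3.22 RPKM in total no dox), a difference of -1.51 ± 0.30. Ddx17, an RNA helicase of the Microprocessor, had effects of -0.26 in nuclei and 0.31 in total RNA, and 1700061G19Rik had -0.53 and 0.49. Tmbim4, a membrane protein of the Golgi, was the 1 in the other direction, with 0.67 in nuclei and -0.51 in total RNA. Irf9 passed 5 RPKM in total dox alone, where a high value lowers the difference. Tmbim4 passed in total no dox alone, where a high value raises it.

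The machinery of small RNA silencing, to which the induced protein belongs, was split. Its 24 genes had a median of -0.11, with 1 larger and 4 smaller at an unadjusted p below 0.05. Dgcr8, the RNA-binding partner of Drosha, had -0.69 ± 0.21, with 3.82 RPKM in nuclear dox against 7.93 RPKM in nuclear no dox, and 5.30 RPKM in total dox against 6.79 RPKM in total no dox. Trim71, which represses mRNAs in stem cells, had -0.43 ± 0.17, and Ago2 had -0.44 ± 0.23. Lin28a, the inhibitor of let-7, was listed at 22.5 RPKM in nuclear dox and 5.53 RPKM in nuclear no dox but only 0.618 RPKM in total dox and 0.244 RPKM in total no dox, and its difference of 0.69 ± 0.25 was -1.85 after quantile normalization. Reported targets of the miR-290 cluster and its relatives (11 genes, median 0.10, 0 larger and 1 smaller) and of let-7 (13 genes, median 0.04, 3 larger and 1 smaller) had counts of a few genes each. Decay factors of the CCR4-NOT and decapping list had -0.16 (23 genes, 0 larger and 1 smaller).

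Core and naive pluripotency factors had a median of 0.00, and -0.19 after quantile normalization (44 genes, 6 larger and 2 smaller). Pou5f1 had 0.37 ± 0.16 (and -0.16 after quantile normalization), Nanog 0.12 ± 0.19 and Sox2 -0.05 ± 0.19. Nodal, a signal of early patterning, was called lower in total RNA (-0.41) and stood at 0.27 in nuclei. The 5 primed and formative genes that passed were all below 0 (median -0.28, and -0.58 after quantile normalization, 0 larger and 1 smaller). Replication licensing genes (30 genes, -0.02, 1 larger and 1 smaller) and cyclins and CDKs (17 genes, -0.02, 2 larger and 0 smaller) had medians just below 0, although 26 of the 30 and 16 of the 17 were called higher in nuclei, as nearly all histones were. After quantile normalization the 2 medians were -0.20 and -0.02. Prim1, the primase, had 0.87 ± 0.28, and Gmnn, the inhibitor of relicensing, had -0.61 ± 0.23. Heat shock genes (27 genes, -0.04), p53 targets (16 genes, -0.05), ATF4 and amino acid stress genes (29 genes, 0.12), chaperonin subunits (14 genes, 0.08) and proteasome subunits (40 genes, 0.15) lay near the median of all genes. After quantile normalization their medians were, in this order, -0.30, -0.07, -0.22, -0.28 and -0.02, against -0.02 for all genes at 5 RPKM. Among proteasome genes 6 were larger and 0 smaller, led by Psmd8 at 0.60 ± 0.14.

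**Figure D4:**
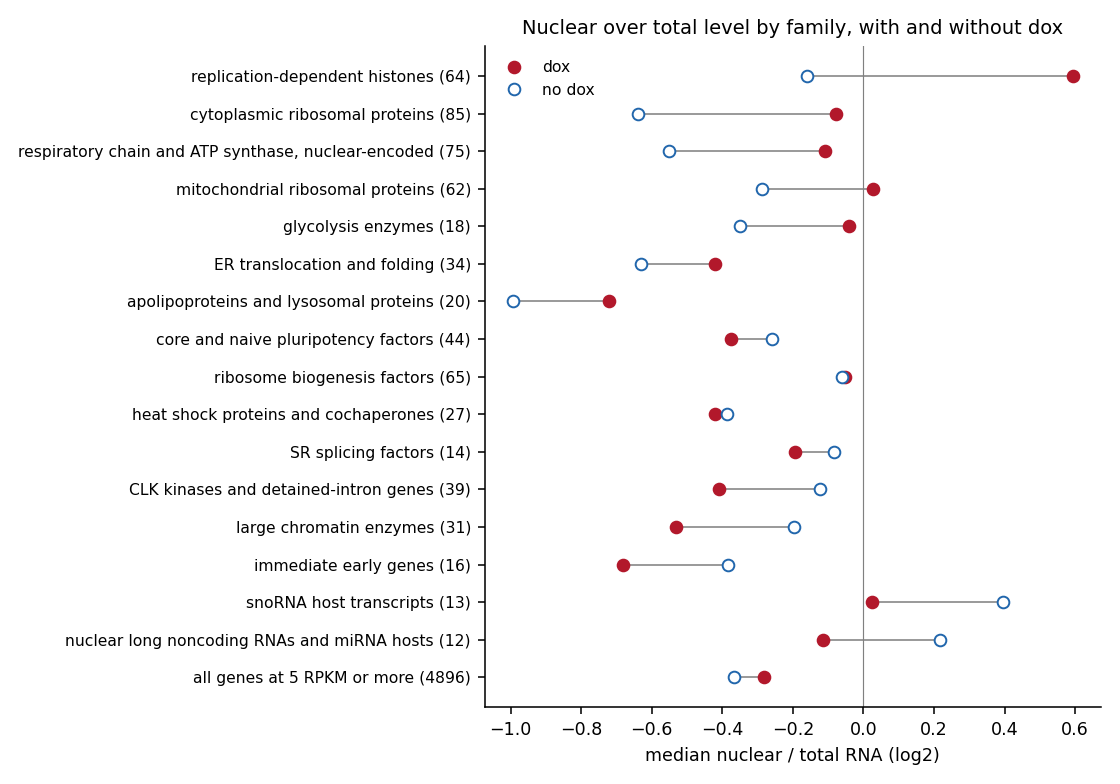
Median nuclear over total level (log2) of each family with dox (filled circles) and without dox (open circles), with the number of genes in brackets. Histones lie above equal RPKM with dox and below it without (0.59 against -0.16), and ribosomal protein genes lie closer to it with dox (-0.08 against -0.64). Nuclear noncoding RNAs have the opposite order (-0.11 against 0.22). All genes at 5 RPKM or more have -0.28 with dox against -0.37 without.

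Exon length differed between the families, though not always in step with the sign of their difference. Median exon length (the union of a gene's exons in GENCODE vM21) was 1734 bases for ribosomal protein genes, 1737 bases for the respiratory chain, 7003 bases for the detained-intron list and 14158 bases for large chromatin enzymes. Hosts of small nucleolar RNAs, with a median difference of -0.19, had 1730 bases, and glycolysis enzymes, with 0.33, had 4133 bases, against 3976 bases for all genes at 5 RPKM. Across all genes at 5 RPKM with a length (4867, 99.4%), the median difference was 0.44 in the shortest decile, 0.05 in the sixth and -0.15 in the longest. A larger nuclear effect at an unadjusted p below 0.05 was held by 42.7% of the shortest decile and 0.821% of the longest, and a smaller one by 1.44% and 8.62%. Without histones the shortest decile had 0.39 and the longest -0.15. The rank correlation of the difference with exon length was -0.47 across genes (Spearman's rho; genes share libraries and are not independent replicates), and 0.31 with GC content. By number of exon blocks (a gene's overlapping exons merged), the median was 0.32 for 1 block, and 0.19 for these without histones. It was 0.25 for 2 to 5 blocks, 0.14 for 6 to 10, 0.01 for 11 to 20 and -0.11 for more than 20.

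The dox effect itself ran with length in each fraction. It had a median of 1.41 in nuclei and 0.94 in total RNA in the shortest decile, and of -0.60 and -0.46 in the longest. The gradient was thus steeper in nuclear RNA. Level ran with it too: the median difference was -0.03 in the decile of genes with the lowest maximum RPKM and 0.33 in the highest. Of the lists above, respiratory chain and ribosomal protein genes kept a median of 0.19 and 0.29 with the trend on length removed, and the detained-intron list and nuclear noncoding RNAs -0.24 and -0.33.

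**Figure D5:**
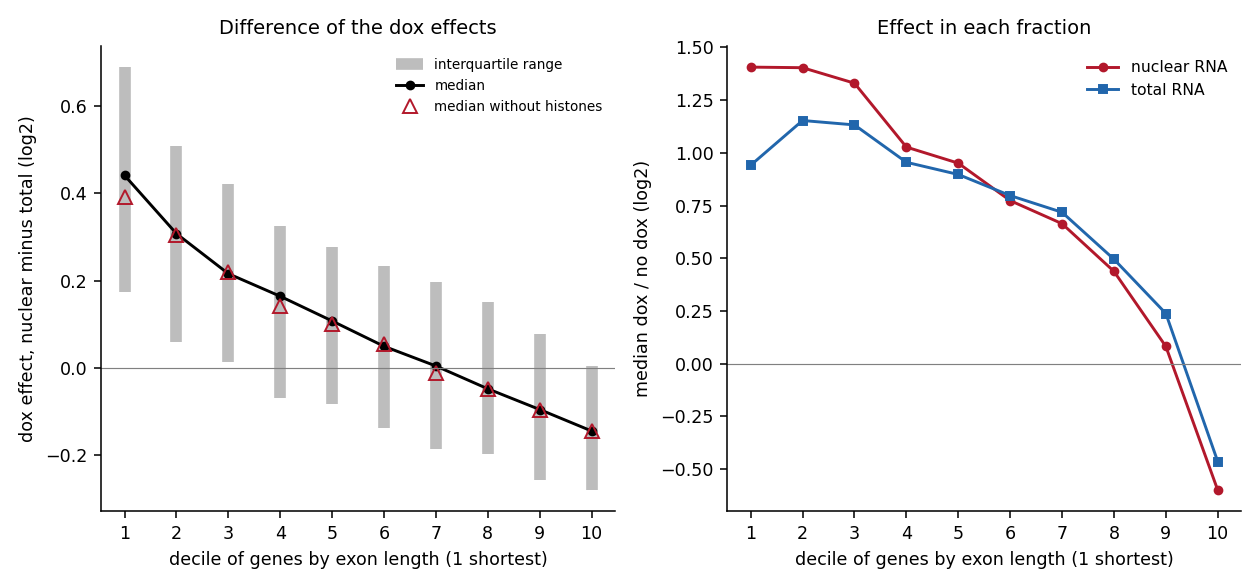
Left, the difference of the dox effects (nuclear minus total, log2) in deciles of genes by exon length, with the median (circles), the interquartile range (bars) and the median without histones (triangles). Right, the median dox effect in each fraction. The difference falls from 0.44 in the shortest decile to -0.15 in the longest, and the effect falls with length in both fractions.

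A few genes with a large difference carry little information. All 8 genes whose difference exceeded 2 in size had an SE of 0.90 or more. They were Hist1h1t, Pla2g1b, Snord96a, Snord52, Mir679, Mir703, Mir6236 and Lars2, and most were near 0 in at least 1 column. Lars2, a mitochondrial leucyl-tRNA synthetase, and Mir6236 had reads in all 4 columns and the same form. Lars2 had 171 RPKM in nuclear dox against 18.2 RPKM in nuclear no dox, and 39.4 RPKM in total dox against 18.0 RPKM in total no dox (difference 2.10 ± 0.90). Mir6236 had 148 RPKM in nuclear dox against 18.1 RPKM in nuclear no dox, and 27.3 RPKM in total dox against 15.0 RPKM in total no dox (difference 2.16 ± 1.25).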

How the data were processed

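Per the submitters' processing notes, bcl2fastq 2.17.1 and TopHat were used with the mm10 build; counting, annotation and use of strand are not given in the sources used here. The authors' deposited table gives group means on the log2 scale, log2(RPKM + 0.001), and ANOVA p-values and q-values, ratio and fold change (a signed score) from Partek 6.6, per the file headers. RPKM printed here is the mean taken back to the linear scale less 0.001, a geometric mean. The residual SD of each gene was recovered from the deposited p-values: with 6 degrees of freedom both p-values gave the same SD within 0.001 for 100% of 16338 genes. limma 3.58.1 in R 4.3.3 moderated these along a trend (median prior degrees of freedom 7.00) in 10197 genes at 1 RPKM in at least 1 group. This replaced tests planned for single libraries. The fit was tested on simulated data in which 200 genes were changed in nuclear RNA. It called 4.48% of those changed by 0.5 (log2), 47.8% of those changed by 1 and 95.5% of those changed by 2. Of 103 genes called, 5 were unchanged. Most differences of 0.5 would thus go uncalled. Adjusted p-values are by Benjamini and Hochberg over all tested genes. Families were described by counts and medians.

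The members and lists were chosen with earlier results of these data known. Lists of ferritin and glutathione genes, vacuolar ATPase subunits and ERK feedback genes, the subclasses of families, the 8 genes over 2 in size, and Rpl13a and the printed histone and ferritin sequences were chosen after the values were seen. Other named genes are the 15 largest t in each direction, the 3 leading and the 1 most opposed member of each family, Ago2 and 3 pluripotency factors, those beside the 5 RPKM rule, and genes called in opposite directions. Exon lengths and transcripts are from GENCODE vM21, promoters from RefSeq (GRCm38.p6). Depth was read from the smallest steps of low RPKM values, for the stated number of libraries per group. It was searched within a set range for each condition, and the ranges for dox and no dox did not overlap. Alternatives were other filters, moderation, scaling, pseudocounts and length or GC trends.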

Additional observations from a re-analysis of the deposited data

How the results depend on the processing

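Under the alternatives, genes called for the difference with a larger or smaller nuclear effect numbered 9 and 7 without a filter on low values, 109 and 12 when only genes at 5 RPKM were fitted, 2 and 1 without moderation, 3 and 1 with moderation without a trend, 12 and 11 after quantile normalization, 0 and 0 with length and GC trends removed, 6 larger with columns centred on their medians, and 1 smaller with the length trend removed. Centring raised the members' median from 0.08 to 0.12; quantile normalization made it -0.02, and left 2078 members called higher and 1565 lower in nuclei and 1566 lower in total RNA. Quantile normalization gave family medians of 0.21 for histones, 0.0052 for histone variants, 0.041 for ribosomal proteins, 0.079 for eIF3, 0.062 for mitochondrial import, -0.041 for glycolysis (reversed), 0.023 for actin and tubulin, 0.37 for metallothioneins, 0.19 for ferritin and glutathione genes, -0.58 for primed genes and -0.79 for ERK feedback genes. It reversed Hist1h4d (-0.046), H2afx (-0.14), Aldoa (-0.25), Ldhb (-0.083), Hspb1 (-0.18), Lin28a (-1.85), Pfn1 (-0.23), Rpl13a (-0.16) and Pou5f1 (-0.16).

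With the length trend removed, and then with length and GC trends removed, medians were 0.41 and 0.39 for histones, 0.23 and 0.25 for variants, 0.29 and 0.32 for ribosomal proteins, 0.16 and 0.15 for interferon-stimulated genes, 0.14 and 0.15 for RNA polymerase II, and 0.15 and 0.14 for metallothioneins. The respiratory chain had 0.19 with the length trend removed; with both removed, keratins (-0.027) and Hspb1 (-0.047) reversed. A pseudocount of 1 RPKM gave 0.14 for interferon-stimulated genes, and reversed keratins (-0.078) and Krt19 (-0.078). Members at 5 RPKM in all 4 columns gave 0.62 for interferon-stimulated genes and 0.53 for the vacuolar ATPase, which had 0.47 at 10 RPKM. The causes were not tested. For single named genes, 2338 of the alternative values kept their direction and side of the threshold, and 61 kept their direction and passed it. A further 46 changed sign in genes with an unadjusted p of 0.05 or more, and 11 in genes below 0.05. With the pseudocount of 1 RPKM there was no p-value, so direction alone was compared.

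No paired analysis was possible because the table holds group means, and no replicate could be left out for the same reason. With 2 or 3 libraries a group, the median SE of 0.21 limits what a single gene can show.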
